A study of Saccharomyces cerevisiae with 16 samples.

Results

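The comparison of yeast cells after 4 h in hydroxyurea with untreated cells rests on the 4 readings of 2 slides, out of 16 readings of 8 slides in the series. Its members were the slides labelled as 200 mM hydroxyurea for 4 h. The strain was CDY59, which the labels call wild-type Saccharomyces cerevisiae, and the untreated RNA came from cells in YPD rich medium at the density where treatment began. The other slides held cells after 1, 2 or 6 h of the same treatment, each against untreated cells, with 2 slides a time. One 4 h slide carried treated RNA in channel 1, its partner in channel 2. Both have a reading titled faible and one titled fort, French for weak and strong; the labels leave these words unexplained. The labels describe no untreated culture kept for 4 h, so treatment and further time in culture cannot be told apart. Whether the slides held separate cultures is not given either. The p-values thus measure only a spread between slides, which may be technical. A difference between channel orientations that all times share was fitted and is not part of that spread.

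Hydroxyurea inhibits ribonucleotide reductase, the enzyme that makes deoxyribonucleotides, by quenching the radical that the iron centre of its small subunits maintains. Replication forks slow, and the Mec1, Rad53 and Dun1 kinases of the S-phase checkpoint hold the cell before mitosis and raise transcription of the reductase genes. Histone transcripts are made in S phase and fall when replication is blocked, while transcripts for separating mother and daughter are made as cells leave mitosis.

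The deposited values were log ratios of one channel over the other, taken here as log2. They were turned to treated over untreated and centred, so that 0 stands for the median gene of a reading. Without centring the median gene stood at 0.46 at 4 h, and all changes are relative to it. The labels name no numerator. The sign was set so that RNR2 and RNR4, which hydroxyurea is known to induce, were positive, so every direction below is likely and not established. A total of 3127 genes were tested with limma over all 8 slides. A gene was called when its Benjamini-Hochberg adjusted p over all genes was under 0.05. A value after ± is the fitted standard error of an estimate, which is the mean of 2 slides. The fit took out the channel difference shared by all times, so this error is not the gap between the 4 h slides. ADE6, for instance, stood at -0.85 and -2.35 with a standard error of 0.17. Ratios carry no level of a transcript, so the labelled strain was not checked against marker genes.

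The 2 slides had the same sign for 64.1% of all genes. Over all genes they correlated at 0.504, a description across genes, which are not independent replicates. Of the 3127 genes, 996 (31.9%) were above 0 on both slides, 1008 (32.2%) were below 0 on both, and the other 1123 were neither. The median absolute difference between the slides was 0.305, beside a median standard error of 0.180. The readings of one slide correlated at 0.945 and 0.928 and were averaged, since they are not replicates. Fort readings were the wider, with a standard deviation over genes of 0.538 and 0.615 against 0.413 and 0.43 for faible.

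Of the 3127 genes, 88 were called at 4 h, or 2.81%. A total of 19 were higher, or 0.608%, and 69 were lower, or 2.21%. This split rests on the centring: on values as deposited 668 genes were called higher and 58 lower. Before adjustment, 530 genes, or 16.9%, had a p under 0.05, of which 136 were higher, or 4.35%, and 394 lower, or 12.6%. Counts at an unadjusted p under 0.05 in the lists below stand beside these shares. All 88 had the same sign in all 4 readings, which a call on the mean of both slides favours. By a rule that needs no model, 56 genes, or 1.79%, were at least 1 in size with the same sign on both slides, 12 of them higher and 44 lower. As deposited, 45 were higher and 8 lower, and after quantile normalization 28 and 44. Of these 56, 36 were among the 88 called. The calls rested on the term for channel orientation, without which 1 gene was called. They also rested on both slides. None was called without the slide with treated RNA in channel 1, and 6 were called without its partner. They also moved with the slides of other times, which share the error: 233 genes were called once either 2 h slide was left out.

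**Figure D1:**
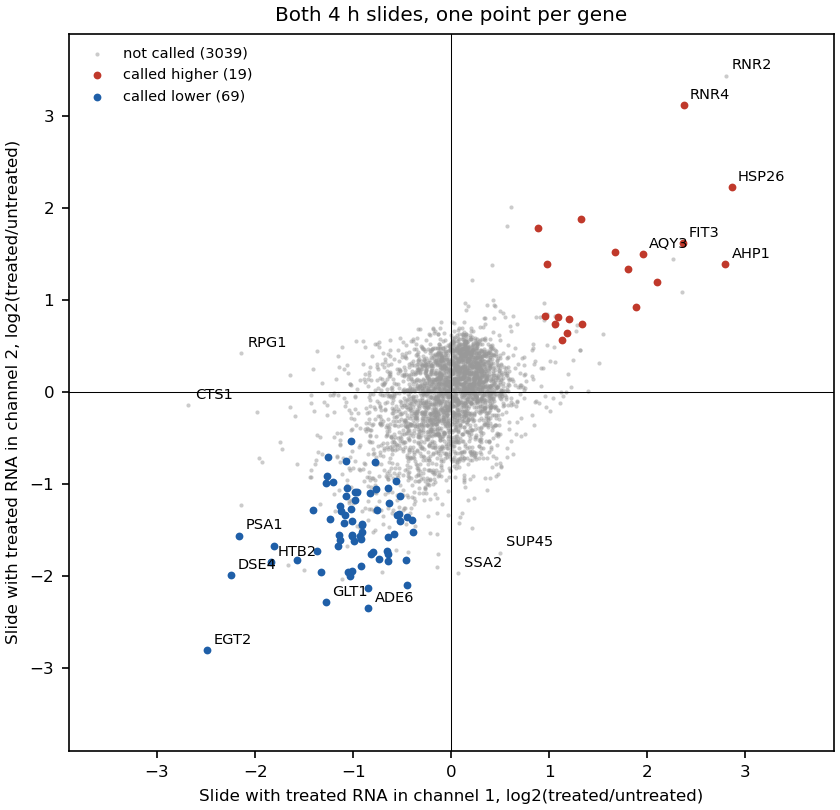
Log2 ratio of treated over untreated RNA at 4 h on the slide with treated RNA in channel 1 (x axis) and in channel 2 (y axis), one point per gene, with 19 genes called higher in red and 69 called lower in blue. RNR2 and RNR4 lie at the upper right and EGT2 at the lower left, while CTS1, RPG1, SUP45 and SSA2 were far from 0 on one slide only.

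Of 13 listed ribonucleotide reductase and nucleotide supply genes, 5 were measured. The reductase genes RNR1 and RNR3 had no spot naming 1 gene and were not measured. Of the 5, 1 was called, or 20%, against 0.608% called higher over all genes. RNR4 (YGR180C), a small subunit of the reductase, read 2.19 and 2.55 on the slide with treated RNA in channel 1 and 3.53 and 2.71 on the other. It was higher by 2.75 ± 0.50 (adjusted p = 0.0274), which is 6.70-fold where the logarithm is binary. It kept its call in 13 of 21 alternatives, some of which are the same fit. RNR2 (YJL026W) encodes its partner in the small subunit and read 2.72, 2.88, 3.60 and 3.29, so its mean of 3.12 ± 0.67 was the highest of all genes. Its adjusted p was 0.0530, and it passed the threshold in 12 of 21 alternatives. At 1 h its slides stood at -0.98 and 3.57, and that spread enters the shared error. These genes set the sign and are no evidence of the direction. DUN1, the checkpoint kinase that acts on reductase inhibitors, stood at 0.35 and 0.81 on the 2 slides (adjusted p = 0.323). DUT1, the dUTPase, averaged 0.04, and CDC8, thymidylate kinase, averaged -0.04, both close to the median gene.

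No gene of the checkpoint, repair or replication lists was called. Among 12 checkpoint sensors and kinases the median was 0.22, and 7 (58.3%) were above 0 on both slides, against 31.9% of all genes. PTC3, a phosphatase that acts on Rad53, was the farthest from 0, at -1.13 and -0.76. The 19 DNA repair genes had a median of 0.12 and ran from -0.62 for NTG2 to 0.44 for MAG1, both base excision glycosylases. The 34 genes of replication forks and origins had a median of 0.08, and none was beyond 0.42 in size. Before adjustment, 1 checkpoint gene (PTC3), 1 replication gene (DBF4, the activator of the Cdc7 kinase) and no repair gene had a p under 0.05, both lower, a smaller share in each list than over all genes.

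All 4 measured histone genes were below 0 on both slides, against 32.2% of all genes. Of the 4, 1 was called, or 25%, against 2.21% called lower over all genes. HTB2 (YBL002W), a histone H2B gene, read -1.60, -2.07, -1.67 and -2.02. It fell by 1.84 (± 0.17, adjusted p = 0.00725), and its slides differed by only 0.01. HTA2, a histone H2A gene next to HTB2 in the genome, stood at -0.99 and -1.19 (adjusted p = 0.05002). The H2A variant gene HTZ1 stood at -0.52 and -0.61. HTB1, the second H2B gene, stood at -0.42 and -0.14, so the H2B pair was apart on both slides. Copies as alike as these can share signal on a slide, and how far the probes separate them is not given in the sources used here.

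Transcripts of mother and daughter separation held the lowest gene of all. Of 15 measured genes made at the end of mitosis and in G1, 3 (20%) were called, all lower, against 2.21% of all genes. Below 0 on both slides were 12 (80%), against 32.2% of all genes, and the median was -0.67. EGT2 (YNL327W), a wall protein needed for separation, read -2.18, -2.80, -2.49 and -3.12 and fell by 2.65 (± 0.31, adjusted p = 0.00954). DSE4 (YNR067C), a daughter-specific glucanase, read -1.90, -2.59, -1.79 and -2.19 and fell by 2.12 (± 0.18, adjusted p = 0.00705). AMN1 (YBR158W), a daughter-cell inhibitor of mitotic exit, read -1.52, -2.09, -1.43 and -1.91 and fell by 1.74 (± 0.30, adjusted p = 0.0219). In each of these genes no reading came within 1 of the median gene. The chitinase gene CTS1, which also acts in separation, was -2.68 on one slide and -0.14 on the other (adjusted p = 0.0848). It had the second largest slide difference of all genes.

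Other phases of the cell cycle gave no called gene. Of 9 G2/M transcripts, 7 (77.8%) were below 0 on both slides, against 32.2% of all genes, with a median of -0.28. The mitotic cyclin gene CLB1 was the farthest, at -1.06 and -1.01. CDC20, an activator of the anaphase-promoting complex, was on the other side of the median gene at 0.25 and 0.38. Of 14 G1/S transcripts, 2 (14.3%) were above 0 and 5 (35.7%) below 0 on both slides, against 31.9% and 32.2% of all genes. The G1 cyclin gene CLN2 stood at -0.72 and -0.79 and the cohesin gene SMC3 at -0.80 and -0.93. Before adjustment, 3 genes of each list had a p under 0.05, all lower, or 33.3% and 21.4%, against 12.6% lower over all genes.

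Cytosolic ribosomal protein genes made up 19 of the 69 genes called lower. These include both copies of some gene pairs, and alike copies can share signal on a slide. Of 49 measured, 46 (93.9%) were below 0 on both slides, against 32.2% of all genes. The median was -1.03, against -0.01 over all genes. The shares called lower were 38.8% of these genes and 2.21% of all. The slides differed in size here, with a list median of -0.78 on the slide with treated RNA in channel 1 and -1.28 on the other. RPS7B (YNL096C), a small subunit protein gene, read -0.95, -1.15, -1.69 and -2.21 and fell by 1.5 (± 0.19, adjusted p = 0.0120). RPL8B, of the large subunit, stood at -1.13 and -1.61 and fell by 1.37 (± 0.24, adjusted p = 0.0231). RPS1A had the lowest mean of the list at -1.57 and missed the threshold (adjusted p = 0.100). The exception was RPS9B, above 0 on both slides at 0.49 and 0.23, named after its values were seen. Of 50 mitochondrial ribosomal protein genes on the list none was called, and their median was -0.13. At an unadjusted p under 0.05 stood 6, all lower, or 12%, close to the 12.6% of all genes.

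Genes for making ribosomes were also called, in smaller shares. Of 67 ribosome biogenesis genes, 5 (7.46%) were called, all lower, against 2.21% of all genes. Below 0 on both slides were 45 (67.2%), against 32.2% of all genes, and the median was -0.38. MAK21, needed for large subunit assembly, fell by 1.41 (± 0.19, adjusted p = 0.0136) and GAR1, a protein of the pseudouridylation snoRNPs, by 1.41 (± 0.17, adjusted p = 0.0120). Of 27 genes of RNA polymerases I and III, 3 (11.1%) were called lower, against 2.21% of all genes, although the list median was -0.05. RPA190 (YOR341W), the largest subunit of polymerase I, read -0.79, -1.27, -1.76 and -2.24 and fell by 1.52 (± 0.20, adjusted p = 0.0136).

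Of 20 translation factor genes, 3 (15%) were called, all lower, against 2.21% of all genes. None was above 0 on both slides and 65% were below 0 on both, against 31.9% and 32.2% of all genes. TIF11 (YMR260C), which encodes eIF1A, read -1.25, -1.48, -1.5 and -1.96 and fell by 1.55 (± 0.15, adjusted p = 0.00725). TIF3, which encodes eIF4B, fell by 1.18 (± 0.18, adjusted p = 0.0166). TIF4631, an eIF4G gene, was lower still at -1.5 and -1.93, with a standard error of 0.65 and no call. The eIF3 subunit gene RPG1 had the largest difference between slides of all genes, at -2.15 and 0.43. SUP45, the release factor gene, went the other way, at 0.50 and -1.75.

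**Figure D2:**
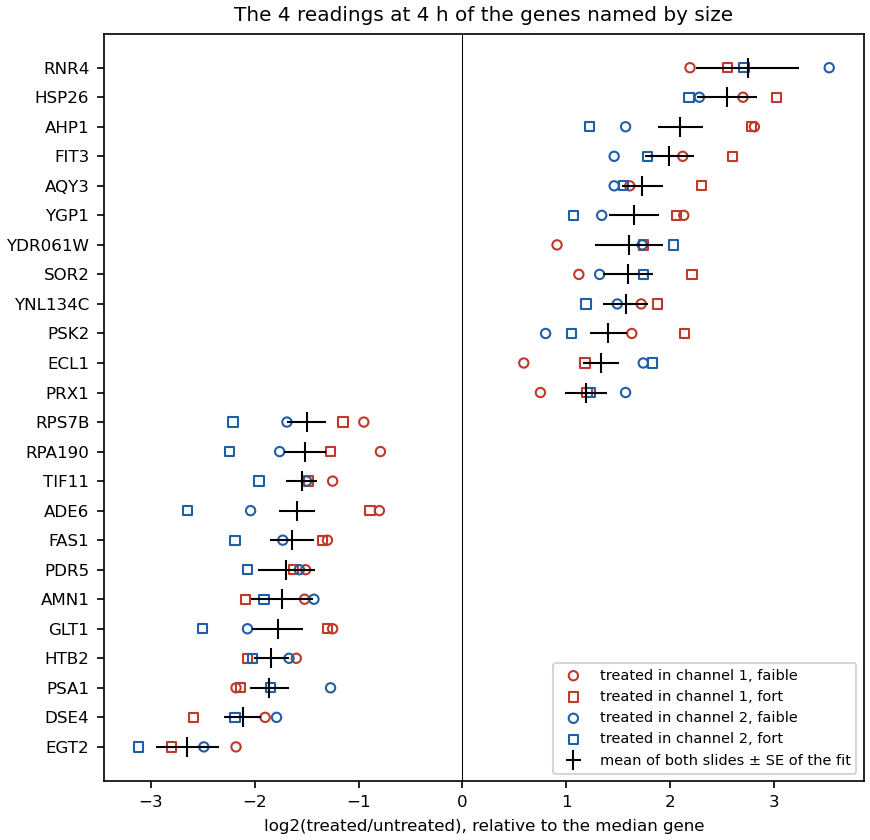
Log2 ratio of treated over untreated RNA (x axis) in each of the 4 readings at 4 h for the 12 highest and 12 lowest called genes (y axis), with treated RNA in channel 1 in red and in channel 2 in blue, faible as circles and fort as squares; black marks are the mean of both slides ± the standard error of the fit. All 4 readings of each gene lie on one side of 0, and those of HTB2 lie closer together than those of ADE6.

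Genes of the general stress response included the second highest called gene. Of 25 measured, 3 (12%) were called, all higher, against 0.608% of all genes. Above 0 on both slides were 18 (72%), against 31.9% of all genes, and the median was 0.41. The share was 87.5% in the meiosis and sporulation list, so it is not particular to stress genes. HSP26 (YBR072W), a small heat shock protein that holds unfolded proteins, read 2.70, 3.02, 2.28 and 2.18 and rose by 2.55 ± 0.29 (adjusted p = 0.00954), which is 5.84-fold where the logarithm is binary. YGP1 (YNL160W), a secreted glycoprotein made when nutrients run low, read 2.13, 2.06, 1.34 and 1.07 and rose by 1.65 ± 0.24 (adjusted p = 0.0162). GRE1, a hydrophilin of osmotic stress, rose by 0.96 ± 0.17 (adjusted p = 0.0265). HSP12, a membrane-stabilising stress protein, was 1.51 on one slide and 0.32 on the other and was not called (adjusted p = 0.0809).

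Antioxidant genes were the list with the most genes called higher, 5 of 25 (20%), against 0.608% of all genes. Above 0 on both slides were 18 (72%), against 31.9% of all genes and 87.5% of the meiosis and sporulation list. The median was 0.26. AHP1 (YLR109W), a thiol peroxiredoxin, read 2.81, 2.78, 1.57 and 1.22 and rose by 2.10 ± 0.22 (adjusted p = 0.00766). PRX1 (YBL064C), the mitochondrial peroxiredoxin, read 0.75, 1.20, 1.57 and 1.23 and rose by 1.19 ± 0.20 (adjusted p = 0.0223). The slide with the higher value thus differed between these peroxiredoxins. The other called genes of the list were SOD1, the copper-zinc superoxide dismutase, ECM4, an omega-class glutathione transferase, and TRX2, a thioredoxin, named after their values were seen, at 0.91, 0.90 and 0.85. YHB1, the flavohaemoglobin that removes nitric oxide, was 0.61 and 2.02 and was not called (adjusted p = 0.196). GTT2, a glutathione transferase, stood at 0.97 and missed the threshold narrowly (adjusted p = 0.05002).

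Of 18 genes of iron uptake and mobilization, 14 (77.8%) were above 0 on both slides, against 31.9% of all genes, and none was below 0 on both. The share was 87.5% in the meiosis and sporulation list, so it is not particular to iron genes. Of the 18, 1 was called, or 5.56%, against 0.608% called higher over all genes. FIT3 (YOR383C), a wall mannoprotein that retains iron-siderophores, read 2.12, 2.60, 1.46 and 1.78 and rose by 1.99 ± 0.23 (adjusted p = 0.00960). SMF3, a vacuolar iron exporter, stood at 1.28 and 0.74 (adjusted p = 0.0740). TIS11, whose protein destabilises transcripts of iron-using proteins, stood at 0.40 and 0.51, and the list median was 0.28. Of 12 genes for iron-dependent enzymes outside respiration, 1 was called (8.33%), lower, against 2.21% of all genes, with a list median of -0.26. It was GLT1 (YDL171C), the iron-sulfur glutamate synthase, which read -1.25, -1.30, -2.07 and -2.50 and fell by 1.78 (± 0.24, adjusted p = 0.0138).

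The remaining genes among the 12 highest were in no list. AQY3 (YFL054C), of the aquaglyceroporin family, read 1.61, 2.30, 1.46 and 1.55 and rose by 1.73 ± 0.20 (adjusted p = 0.00954). PSK2 (YOL045W), a PAS-domain kinase of sugar metabolism, rose by 1.41 ± 0.18 (adjusted p = 0.0120), and ECL1 (YGR146C), which extends chronological lifespan when overexpressed, by 1.34 ± 0.18 (adjusted p = 0.0136). YNL134C rose by 1.57 ± 0.22 (adjusted p = 0.0138), and YDR061W by 1.60 ± 0.32 (adjusted p = 0.0433). SOR2 (YDL246C), a sorbitol dehydrogenase gene, rose by 1.60 ± 0.24 (adjusted p = 0.0166). Its near-identical copy SOR1 stood at 2.35 and 1.10, with a mean of 1.72 ± 0.50 and no call (adjusted p = 0.115). At 6 h the SOR1 slides stood at 0.41 and 2.82, and that spread enters the shared error. How far the probes separate the pair is not given in the sources used here. YMR315W, an oxidoreductase gene, was also high without a call, at 2.26 and 1.45 (adjusted p = 0.100).

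PSA1 (YDL055C), which makes the GDP-mannose used for wall mannoproteins, read -2.18, -2.14, -1.27 and -1.85 and fell by 1.86 (± 0.19, adjusted p = 0.00725). PST1, a wall protein made under wall stress, fell by 1.28 (± 0.18, adjusted p = 0.0138). Both come from the cell wall list, where these 2 of 14 (14.3%) were called, against 2.21% called lower over all genes. The list median was -0.21, and YPS1, a wall-anchored protease, was the highest at 0.87 and -0.10. PDR5 (YOR153W), a multidrug efflux pump, read -1.51, -1.63, -1.57 and -2.07 and fell by 1.70 (± 0.27, adjusted p = 0.0194). It was the single called gene of 12 in drug efflux, or 8.33%, against 2.21% called lower over all genes.

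Of 21 chaperone genes outside the stress list, 2 (9.52%) were called, both lower, against 2.21% of all genes. Below 0 on both slides were 11 (52.4%), against 32.2% of all genes, and the median was -0.44. SSB2, a ribosome-bound Hsp70, stood at -0.85 and -2.13 on the 2 slides and fell by 1.49 (± 0.21, adjusted p = 0.0149). Its close copy SSB1, which can share signal with it on a slide, stood at -1.24 (adjusted p = 0.0687). HSP82, the inducible Hsp90, fell by 1.22 (± 0.23, adjusted p = 0.0302). SSA2, a cytosolic Hsp70, was 0.07 on one slide and -1.97 on the other, among the 6 largest slide differences, and was not called.

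Metabolic lists held few called genes. Of 27 amino acid synthesis genes 1 was called (3.7%), ARO2 of the aromatic pathway. It fell by 0.83 and is named after its values were seen, and the list median was -0.43. Of 14 glycolytic and fermentation genes 1 was called (7.14%), PFK1, a phosphofructokinase subunit, which fell by 0.96 (± 0.16, adjusted p = 0.0194). Over all genes 2.21% were called lower. CDC19, pyruvate kinase, and ARO4, of aromatic synthesis, were among the 6 genes with the largest slide difference, at -1.65 and 0.19 and at -1.37 and 0.45. Respiratory chain and ATP synthase genes had none called of 39, with 9 lower (23.1%) and 1 higher at an unadjusted p under 0.05, against 12.6% and 4.35% of all genes.

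Lists of small, one-sided shifts had no called gene. Of 10 hexose transporter and sensor genes 8 were above 0 on both slides, of 20 glucose-repressed genes 14 were, and of 23 autophagy and vacuolar protease genes 15 were. No gene of these lists was below 0 on both. The shares of 80%, 70% and 65.2% stand beside 31.9% of all genes and 87.5% of the meiosis and sporulation list. Channel intensities were not used, so whether these transcripts stood above background is unknown. The list medians were 0.31, 0.26 and 0.22. The largest single values were APE1, a vacuolar aminopeptidase, at 0.57 and 1.81 (adjusted p = 0.0838), and CIT2, the peroxisomal citrate synthase, at 0.53 and 0.86. At an unadjusted p under 0.05 stood 2, 1 and 2 genes of the lists, all higher, or 20%, 5% and 8.7%, against 4.35% higher over all genes. Meiosis and sporulation genes, which growing cells keep off, had 7 of 8 above 0 on both slides, none beyond 0.38, and none at an unadjusted p under 0.05.

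Mating genes had none called of 12, with 1 higher (8.33%) and 3 lower (25%) at an unadjusted p under 0.05. SAG1, the alpha-agglutinin, stood at -1.04 and -1.20. The proteasome (25 genes), sulfur amino acid (16), sterol (15), phosphate (7) and aryl-alcohol dehydrogenase (4) lists likewise had no call. Their medians were -0.11, 0.21, 0.02, 0.13 and 0.39. At an unadjusted p under 0.05 stood 4 proteasome genes (16%), 1 sulfur gene (6.25%) and 2 phosphate genes (28.6%), all lower, against 12.6% lower over all genes. No sterol gene did, and 2 aryl-alcohol dehydrogenase genes did, both higher. Counts this small in lists this short are not a result about the lists. AAD14 of the last list was 0.94 and 0.26.

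**Figure D3:**
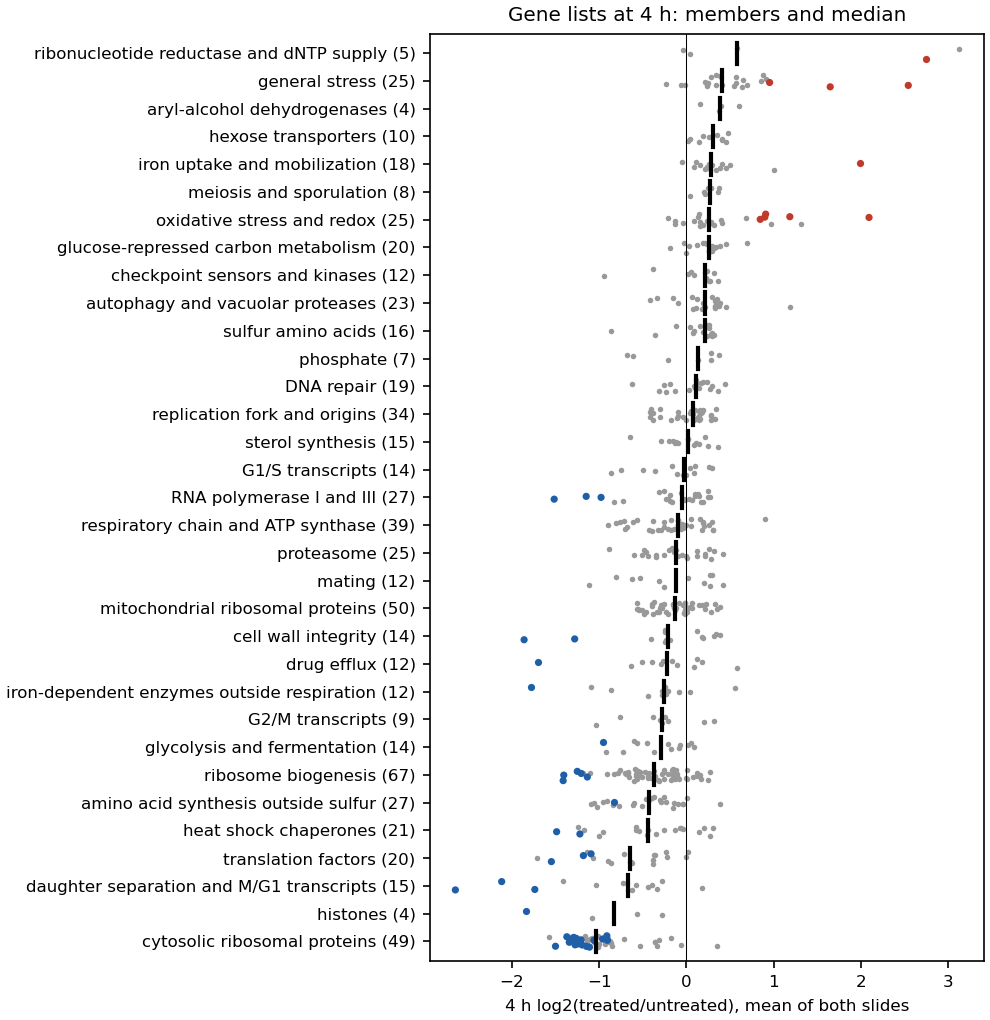
Log2 ratio of treated over untreated RNA at 4 h (x axis, mean of both slides) for the measured genes of 33 lists (y axis, number measured in brackets), with called genes in red where higher and blue where lower, other genes in grey, and black bars for list medians. Cytosolic ribosomal proteins have the lowest median, -1.03, and ribonucleotide reductase and dNTP supply the highest, 0.58. That list has 5 members, of which RNR2 and RNR4 set the sign of all values, and its median is DUN1, which was not called.

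Which of these values differ at 4 h from the other times was asked with the same fit. No gene was called for 4 h minus the mean of 1, 2 and 6 h (0%), for 4 h minus 2 h (0%) or for 4 h minus 6 h (0%). In limma, 137, 505 and 38 genes had an unadjusted p under 0.05, and the smallest adjusted p was 0.942, 0.0572 and 1. For 4 h minus 2 h, 163 genes were lower at 4 h when the channel 1 slide of 2 h was left out, and 4 were higher without the channel 2 slide. The result of that comparison thus turned on which 2 h slide was used.

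Beside the other times, genes of the 4 h response had different courses, given here as values. HSP26 averaged 1.21, 1.91, 2.55 and 2.92 at 1, 2, 4 and 6 h. PSA1 averaged -0.38, -0.71, -1.86 and -2.39. DSE4 averaged -1.55, -2.12, -2.12 and -1.93, so at 2 h and 4 h it had the same level of change.

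Some of the lowest genes at 4 h were near the median gene at 2 h. GLT1 averaged -0.76, 0.09, -1.78 and -0.90 over the 4 times, and its 4 h minus 2 h difference was -1.87 ± 0.35 (adjusted p = 0.118). FAS1 (YKL182W), the beta subunit of fatty acid synthase, averaged -1.19, 0.16, -1.64 and -1.63, with a difference from 2 h of -1.80 ± 0.30 (adjusted p = 0.118). ADE6 (YGR061C), of purine synthesis, averaged -1.26, 0.01, -1.60 and -1.28, with a difference of -1.61 ± 0.24 (adjusted p = 0.0902). None of these differences passed the threshold. At 2 h the slides stood at 0.04 and 0.14 for GLT1, -0.08 and 0.39 for FAS1, and 0.44 and -0.42 for ADE6. At 4 h itself FAS1 fell by 1.64 (± 0.21, adjusted p = 0.0127) and ADE6 by 1.60 (± 0.17, adjusted p = 0.00820), with readings of -0.80, -0.89, -2.04 and -2.65 for ADE6.

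List medians gave the same kind of picture, without a test. Glycolysis and fermentation stood at -0.26, 0.73, -0.29 and -0.30 at 1, 2, 4 and 6 h. Chaperones stood at 0.07, 0.17, -0.44 and -0.37, and amino acid synthesis at -0.25, 0.16, -0.43 and -0.60. At 2 h the slides lay far apart for some members, such as CDC19 at -0.64 and 3.35 and SSC1 at -1.38 and 2.46. The 2 h medians are uncertain for that reason. Cytosolic ribosomal proteins were below 0 at each time, at -0.92, -0.65, -1.03 and -1.26. General stress genes were above 0 at each, at 0.63, 0.72, 0.41 and 0.52. Whether 1 untreated RNA served all times is not given in the labels.

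**Figure D4:**
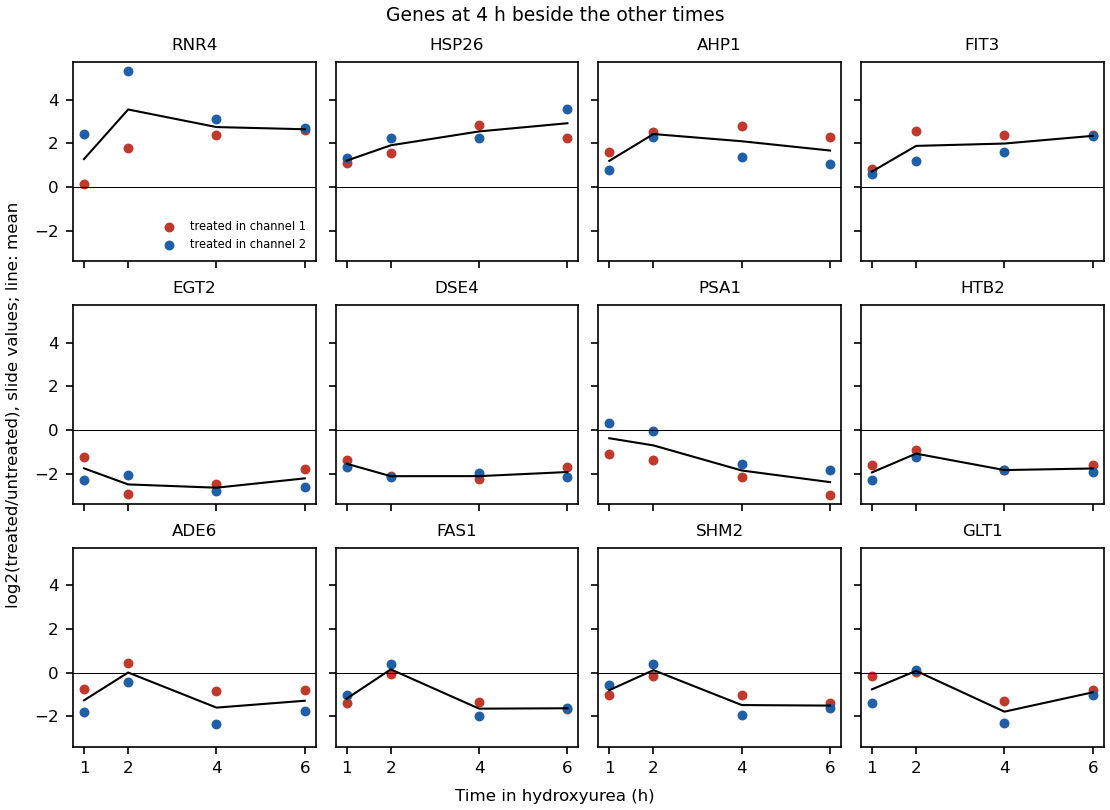
Log2 ratio of treated over untreated RNA (y axis) against hours in hydroxyurea (x axis) for 12 genes chosen after their values were seen, with the slide with treated RNA in channel 1 in red, in channel 2 in blue, and a line through their means. HSP26 averages 1.21 at 1 h and 2.92 at 6 h, and GLT1, FAS1, ADE6 and SHM2 lie near 0 at 2 h and below it at 4 h.

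The last number of a spot's ID moved with the values of the slides. Spots with a last number of 9 to 12 had a median of 0.04 on the slide with treated RNA in channel 1 and -0.13 on the other, against -0.02 and 0.06 for spots numbered 1 to 8. Of their 950 genes 3.26% were called lower, against 1.75% of the other 2177. The 48 groups of spots that share the first number of the ID had medians between -0.36 and 0.27 on one slide and between -0.50 and 0.28 on the other. With each group set to the same median, 92 genes were called, 77 of them among the 88. With each class of last number set to the same median, 92 were called, 85 of them among the 88. Of the 12 highest and 12 lowest genes, RNR4 (2.80, adjusted p = 0.0535) and YDR061W (1.54, adjusted p = 0.0679) lost their call when the groups by first number were set alike, and YDR061W (1.56, adjusted p = 0.05015) also when the classes by last number were. The other genes named by size kept theirs in both.

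**Figure D5:**
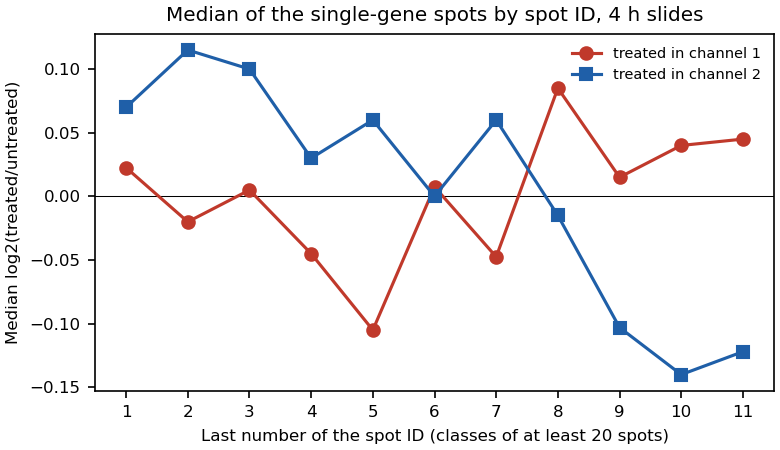
Median log2 ratio of treated over untreated RNA at 4 h (y axis) of the single-gene spots by the last number of the spot ID (x axis, classes of at least 20 spots), with treated RNA in channel 1 in red and in channel 2 in blue. From number 8 on the red medians are above 0 and the blue ones below it.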

How the data were processed

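The values the authors deposited were log ratios of 2 channels, read here as log2, for 6912 spots in each of 16 readings of 8 slides. The base is not stated, and with a natural logarithm the folds would be larger. Per the labels, a column kit gave the total RNA, and labelling was indirect. The image software, background correction and any normalization by the authors are not given in the sources used here. Reading medians ran from -0.95 to 0.41. Channel intensities were not used, so signal over background is unknown, and the number of slides limits the precision.

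Spots naming 1 gene (3344) were used, and 387 naming several and 3181 naming none were left out. Spots of a gene were averaged (207 genes), giving 3127 genes. Of the spots, 3343 matched a locus tag in RefSeq's annotation. No genome position or sequence is given.

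Every reading was turned to treated over untreated, and the median over spots with 1 gene was subtracted; both readings then gave 1 value per slide. In limma 3.58.1 (R 4.3.3), the terms were the 4 times and the channel orientation, with 3 residual and 4.89 prior degrees of freedom. Testing was two-sided at an adjusted p of 0.05; 2 slides are too few for a permutation test to pass it. The scripts were tested on simulated data.

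Genes are named if among the 12 highest or 12 lowest called with 1 sign in all readings, the 4 farthest from 0 in a list (all members for nucleotide supply and histones), the 6 largest slide differences or the 6 largest values not called (differences between times had no call to name); others are marked as named after their values were seen. The comparison and the 33 lists, with 672 measured genes, were chosen with earlier results of these data known. Alternatives changed the centring, scaling, readings, spots, model and slides.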

Additional observations from a re-analysis of the deposited data

How the results depend on the processing

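Of 21 alternatives, a called gene kept its call in 8 to 19 (median 16), and 64 of the 88 kept it in 14 or more. The 21 are not all separate checks. With 2 slides a time, leaving out either slide of 1 h, of 2 h or of 6 h gives the same 4 h result. Leaving out a 1 h slide also equals using the 2 h, 4 h and 6 h slides alone. None of the 88 changed sign in any alternative, which their size made likely. The called value nearest 0 was -0.76, larger in size than the 0.46 that centring took off the median gene. The number called at 4 h was 726 on values as deposited (668 higher, 58 lower), where limma gave every gene the same variance, 324 after quantile normalization (91 higher, 233 lower), 247 with slides scaled alike (47 higher, 200 lower), 42 from faible and 167 from fort readings alone, 1 with no orientation term, 0 with no moderation across genes and 515 from the 4 h and 6 h slides alone. Leaving out each slide in turn gave 0 to 233. The count for 4 h minus 2 h was 548 as deposited (530 higher, 18 lower), 20 after quantile normalization, 2 with slides scaled alike, 1 from faible and 3 from fort readings, 3 with spots centred by the last number of their ID, and 0 to 163 with each slide left out. Both centrings by spot ID were chosen after the data were seen. The other comparisons between times stayed at 0 in each alternative run. Genes at least 1 in size on both slides numbered 29 in faible and 87 in fort readings, and 53 as deposited (45 higher, 8 lower). The cause of these shifts was not tested. Without centring, list medians were higher by about the 0.46 of the median gene, and 14 of 18 lists with a median below 0 were above it, ribosome biogenesis (0.09), G2/M transcripts (0.19) and chaperones (0.03) among them; histones (-0.36), separation transcripts (-0.20), translation factors (-0.18) and cytosolic ribosomal proteins (-0.57) stayed below 0. Each value is a ratio of treated to untreated RNA on the same slide, so that pairing was kept. Slides of different times could not be paired, because the labels carry no replicate numbers. Those used here only name the slides of a time. Promoter motifs were planned and not analysed here.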

Other observations

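Biosynthetic genes outside the lists were among those called lower, and 3 further lists were drawn up after their values were seen, so their counts support nothing. Of 12 measured genes of purine and one-carbon synthesis, 2 (16.7%) were called, both lower, against 2.21% of all genes. Below 0 on both slides were 9 (75%), against 32.2% of all genes. Those called were ADE6 and SHM2, the cytosolic serine hydroxymethyltransferase. SHM2 stood at -1.01 and -1.95 on the 2 slides and fell by 1.48 (± 0.26, adjusted p = 0.0244). Of 7 genes of fatty acid synthesis and activation, 3 (42.9%) were called lower, against 2.21% of all genes. They were FAS1, the acyl-CoA synthetase gene FAA1 at -1.29 and the acetyl-CoA carboxylase gene ACC1 at -0.93. OLE1, the fatty acid desaturase, was on the other side at 1.12 on one slide and 0 on the other.

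Of 12 aminoacyl-tRNA synthetase genes, 10 (83.3%) were below 0 on both slides, against 32.2% of all genes. The median was -0.92, yet none was called. VAS1, the valyl enzyme, read -1.64, -1.68, -1.65 and -2.10 with an adjusted p of 0.0509. GRS1, the glycyl enzyme, read -2.12, -2.16, -0.96 and -1.49 (adjusted p = 0.100). At an unadjusted p under 0.05 stood 9 of the 12 (75%), all lower, against 12.6% lower over all genes; the list was chosen with these values seen.

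Among called genes named after their values were seen, MF(ALPHA)1, which encodes the alpha-factor pheromone, was higher by 0.90, and SSU1, a sulfite exporter, by 1.00. SEC31, a coat protein of vesicles leaving the endoplasmic reticulum, stood at -1.19, MLP1 of the nuclear pore basket at -1.21, and the nucleolar anchor of the Cdc14 phosphatase NET1 at -1.17. In all, 36 of the 88 called genes were in none of the 33 lists.

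Of 3181 spots with no gene name, 4 were higher and 35 lower by at least 1 on both slides. Of 387 spots naming several genes, 9 were lower and none was higher. Among the 3127 genes tested, 12 were higher and 44 lower by that rule.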
